A study of Bos taurus with 129 samples.

Results

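Trophoblast Kunitz domain proteins (TKDP) are secreted proteins of the ruminant trophoblast, the outer cell layer of the conceptus that later forms the placenta. Each ends in a Kunitz domain, the fold that aprotinin uses to block serine proteases, behind a stretch found only in this family, and they are made in the weeks around attachment to the uterus. SSLP1, for which RefSeq also lists the name SOLD1, is a small secreted protein of the Ly-6 type. CSH2 (placental lactogen) and the prolactin-related proteins PRP1 and PRP9 belong to the prolactin and growth hormone family and are known as products of the binucleate trophoblast cells of the bovine placenta.

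The genes described here were the rows named TKDP1 to TKDP5, SSLP1, CSH2, PRP1 or PRP9. Of these 9 symbols, 7 were present among 35158 rows in the tables of experiment E2 (CSH2, PRP1, PRP9, SSLP1, TKDP1, TKDP2 and TKDP4). In experiment E1, 5 of 24616 rows carried one of the symbols, TKDP1, TKDP4, PRP1, PRP9 and SSLP1. The E1 row with the symbol TKDP1 is described in the same file as TKDP2, and its accession belongs to TKDP2 in RefSeq. It is therefore called the TKDP2-described row below and is compared with TKDP2, not with TKDP1, of E2. TKDP3 and TKDP5 were not analysed here.

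RNA from cows at day 16 of pregnancy was sequenced in 4 tissues, and pregnancies were grouped as normal (N), embryo mortality (EM) or non-pregnant (NP). The E2 conceptuses (6 EM, 9 N) came from lactating multiparous Holstein cows inseminated with semen of a single sire, and were flushed from the uterus and classed by their look, N being translucent and elongated and EM pink, red or opaque or short. E1 added 4 EM and 8 N conceptuses, whose classing by appearance none of the sources describes. Endometrium was available from both experiments (E1: 4 EM, 8 N, 7 NP; E2: 6 EM, 9 N, 7 NP), as were blood mononuclear cells, PBMC (E1: 3 EM, 7 N, 5 NP; E2: 6 EM, 9 N, 7 NP), and corpus luteum from E2 (6 EM, 9 N, 7 NP). No source pairs the tissues by cow, and p-values measure only the spread between these samples, which may in part be technical.

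Library totals ranged from 10532188 to 24482117 counts in the E2 conceptuses and from 6800123 to 14581706 in the N conceptuses of E1. The EM conceptuses of E1 were shallower, from 106785 to 6402817 counts, so low genes were poorly measured there. The conceptus label held for N libraries, in which the summed level of 16 trophectoderm markers was 22993 to 46667 CPM (counts scaled to each library's total) in E2 and that of 12 leukocyte markers 8.05 to 38.01 CPM. In the EM libraries of E2 the trophectoderm sum was 1213 to 19408 CPM, the leukocyte sum 182 to 1488 CPM, and that of 10 endometrial epithelium markers 4677 to 8770 CPM against 8.66 to 1302 CPM in N. In the E2 endometrium libraries this last sum was 527 to 4479 CPM, below every EM conceptus of E2. It is therefore no measure of how much endometrium a conceptus library held, and what raised it in EM was not tested. EM replicate S55 of E2 stood apart from the other EM conceptuses, and EM replicates S4 and S5 of E1 were the shallowest libraries, so results that rest on them are also given without them. S55 held the highest levels of TKDP1, TKDP2, TKDP4 and SSLP1 in its group, so leaving it out enlarges their fall in EM. In the E2 endometrium table a column of the N sheet carried the number of an EM sample, and it was used as an N library without a number.

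TKDP1 was among the most abundant transcripts of the normal conceptus and was lower in every EM conceptus. In the 9 N conceptuses of E2 it ranged from 21755 to 38358 CPM, with a median of 32073 CPM and a mean of 32007 ± 5567 CPM (SD, n = 9). It took 2.18 to 3.84% of all counts, and ranked first or second among all genes in each N library. In the 6 EM conceptuses TKDP1 was 9.89 CPM at the lowest, 1161 CPM at the median and 18520 CPM at the highest. No EM library reached the lowest N library, although the highest, replicate S55, came close to it, and the EM libraries spread far more widely than the N libraries. TKDP1 was 9.68-fold lower in EM, a log2 difference of -3.28 (SE 1.04, adjusted p = 0.0108, edgeR's quasi-likelihood test with Benjamini-Hochberg adjustment over all genes), and of -4.94 (adjusted p = 0.000417) without S55. In these whole conceptuses, fewer cells of a type and less RNA per cell cannot be told apart.

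SSLP1, the Ly-6 type protein, was also abundant in the normal conceptus and lower in every EM conceptus. It ranged from 4718 to 8013 CPM in the N conceptuses of E2, with a median of 6633 CPM and a mean of 6609 ± 1108 CPM (SD, n = 9). In EM it was 30.99 CPM at the lowest, 375 CPM at the median and 3387 CPM at the highest, and the groups did not overlap. SSLP1 fell by 3.18 on the log2 scale in EM (SE 0.79, adjusted p = 0.00211, edgeR), and the log2 difference was -4.29 (adjusted p = 0.000101) without S55. It ranked 10th to 19th among all genes in the N libraries and 25th to 5721st in the EM libraries.

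SSLP1 was also lower in EM in E1. The 4 EM conceptuses held 65.6, 69.97, 192 and 300.5 CPM and the 8 N conceptuses 199 to 588 CPM, with a median of 425 CPM. Of the EM conceptuses, 3 lay below every N conceptus and replicate S2 lay above 2 of the 8 N conceptuses. SSLP1 fell by 1.17 on the log2 scale (SE 0.31, adjusted p = 0.0059, edgeR). The 2 shallowest EM libraries held 7 and 43 SSLP1 counts, and without both of them the log2 difference was -1.15 (adjusted p = 0.0312, edgeR, a setting chosen after seeing the data).

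**Figure D1:**
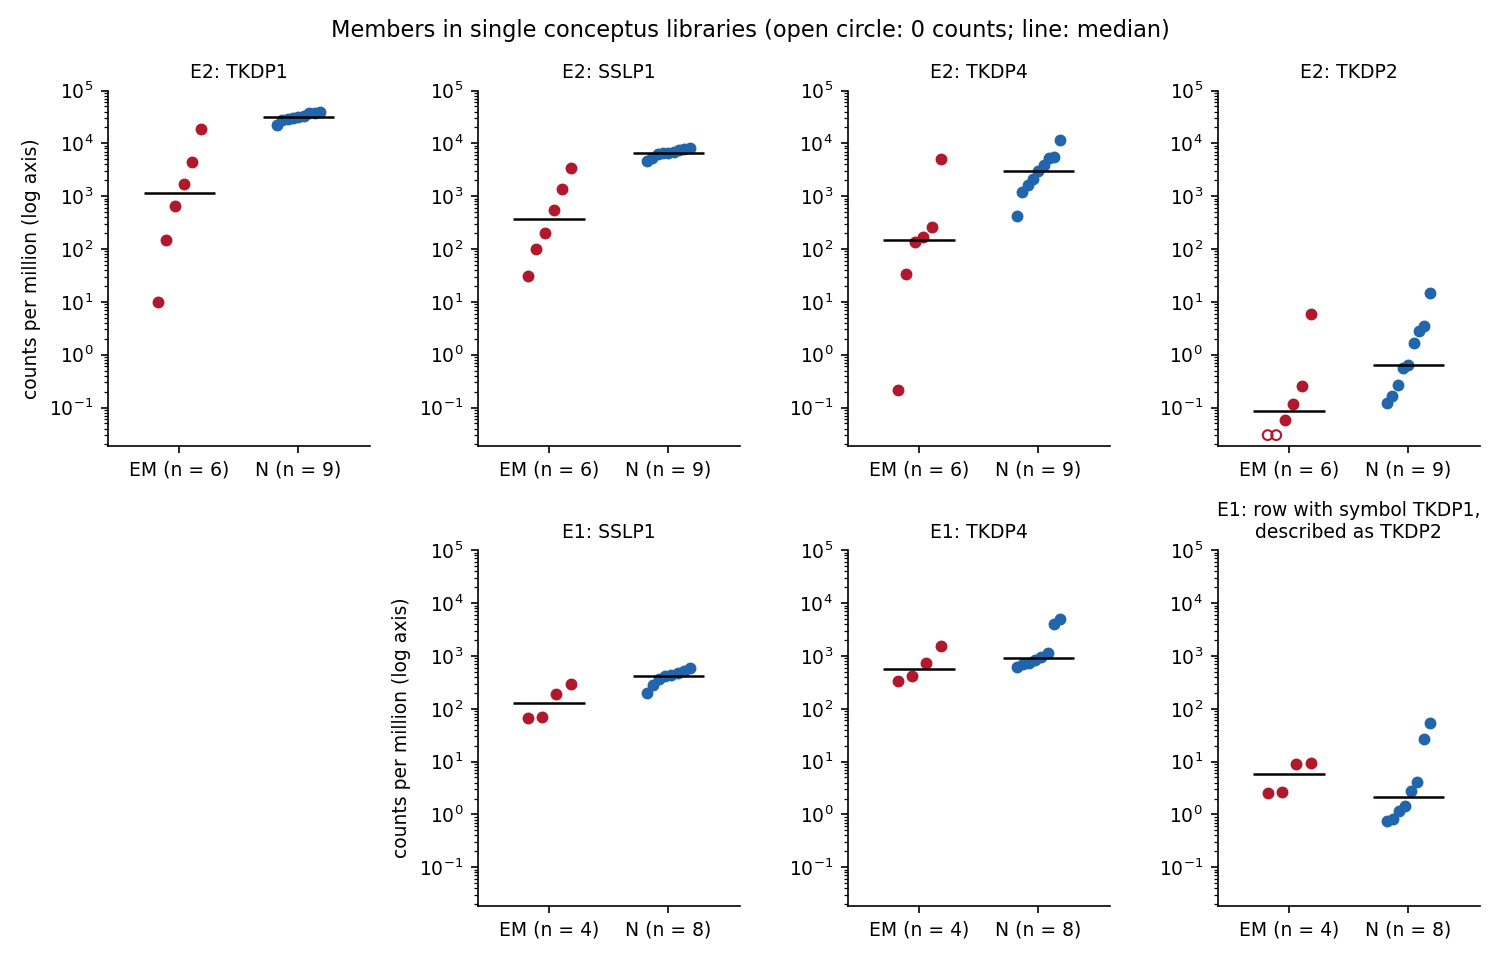
Levels of the members in single conceptus libraries, in CPM on a log axis, for EM (red) and N (blue) in E2 (upper row) and E1 (lower row); black lines are medians and open circles are libraries with 0 counts. TKDP1 and SSLP1 of E2 show 9 N points close together above all 6 EM points, while TKDP4 and TKDP2 spread widely in N and overlap between the groups.

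TKDP4, another secreted Kunitz protein of the trophoblast, did not pass the test in either experiment. It varied from 426 to 11740 CPM among the 9 N conceptuses of E2, with a median of 3016 CPM. In the 6 EM conceptuses it was 0.21 CPM at the lowest, 151 CPM at the median and 5007 CPM at the highest. Of the EM conceptuses, 5 lay below every N conceptus, and replicate S55 lay above 6 of the 9. The log2 difference was -2.42 (SE 1.26, adjusted p = 0.0994, edgeR), with a 95% interval of -4.89 to 0.05. Without EM replicate S55 it was -5.44 (adjusted p = 0.000874, edgeR), the only 1 of 20 alternative settings in which TKDP4 was called. Over these settings the log2 difference ran from -5.44 to -1.79.

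In E1 TKDP4 was 338, 412, 743 and 1531 CPM in EM and 622 to 5056 CPM in N, with a median of 905 CPM. The groups overlapped, and the 2 highest N conceptuses, S6 and S8, stood at 5056 and 4088 CPM while the other 6 lay between 622 and 1127 CPM. The log2 difference was -1.02 (SE 0.58, adjusted p = 0.156, edgeR). Per kb of exon, TKDP4 stood at a median of 1468 CPM in the N conceptuses of E1 and SSLP1 at 1058 CPM.

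TKDP2 was the scarcest member detected in the conceptus. The N libraries of E2 held 2 to 255 counts, 0.12 to 14.9 CPM with a median of 0.65 CPM. The EM libraries held 0, 0, 1, 2, 3 and 63 counts, the 63 counts being those of replicate S55 (5.98 CPM). The log2 difference was -1.79 (SE 1.33, adjusted p = 0.244, edgeR), -5.46 (adjusted p = 0.00312) without S55, and -0.37 (adjusted p = 0.796) without N replicate S54, the highest of its group. In E1 the TKDP2-described row held 5 to 641 counts in N and 1, 2, 10 and 16 counts in EM. Its mean was lower in EM (5.85 CPM against 11.4 CPM), its median higher (5.77 CPM against 2.10 CPM), and its fitted log2 difference was -1.65 (SE 1.47, adjusted p = 0.372, edgeR) and -0.59 (adjusted p = 0.703) without N replicate S6. A count of 1 or 2 in the shallow EM libraries stood for about 9 CPM.

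CSH2, PRP1 and PRP9, hormones of the later placenta, were at 0 in every conceptus library in which they had a row. That was 15 libraries for CSH2 and 27 libraries for PRP1 and PRP9. An E1 row with the symbol CSH1, described in its file as CSH2, carried none of the symbols used here and was at 0 in every E1 library. For the 9 N conceptuses of E2 a count of 0 in 186114695 allows a level of up to 0.016 CPM, a limit that covers counting error only. In the maternal libraries CSH2 had 1 count in 66, PRP1 had 2 counts in 100 and PRP9 had 0 counts in 100. None of the 3 genes was tested.

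In all, 2 of the 4 members tested in the E2 conceptuses fell in EM and none rose, beside 31.8% of 15642 genes called lower and 35.3% called higher. In E1, 1 of 3 members tested fell and none rose, beside 21.7% of 11211 genes called lower and 25.4% called higher. Since calls were so common over all genes, these counts do not set the members apart from other genes. The share of all genes whose EM and N libraries did not overlap is not given here. Without that share, whether the separation of TKDP1 and SSLP1 in E2 sets them apart from other genes cannot be told.

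The size of the EM difference was compared between experiments in a fit on genes found in both tables. The EM difference of SSLP1 was 1.78 smaller in E1 on the log2 scale (SE 0.86, adjusted p = 0.333, edgeR), with a 95% interval of 0.09 to 3.48. That of TKDP4 was 1.203 smaller (SE 1.45, adjusted p = 0.736) and that of TKDP2, set against the TKDP2-described row, 0.20 smaller (SE 2.02, adjusted p = 0.989). None of the 3 members passed with edgeR or DESeq2, 1 had an unadjusted p under 0.05 (SSLP1), and 0.191% of 12017 genes passed. Without EM replicate S55 of E2, SSLP1 (2.87, adjusted p = 0.0159, edgeR) and TKDP4 (4.21, adjusted p = 0.0281, edgeR) passed. That was the only 1 of 30 alternative settings in which either passed. The experiments differed in read length, genome build and annotation, so levels were not compared between them.

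**Figure D2:**
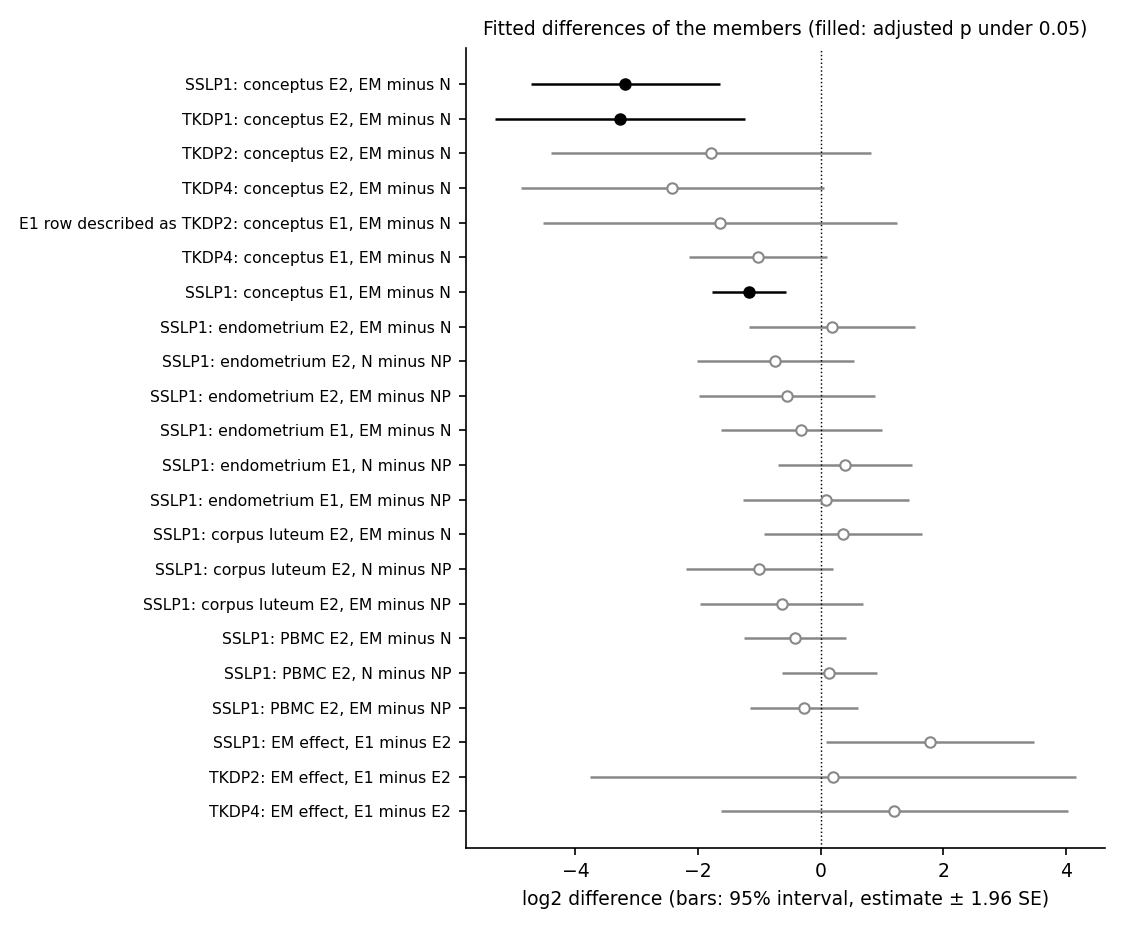
Fitted log2 differences of the members in the comparisons in which they were tested, conceptus against endometrium left out, with 95% intervals; filled points have an adjusted p under 0.05. Filled points appear only for SSLP1 and TKDP1 in the E2 conceptuses and SSLP1 in the E1 conceptuses, all below 0, and every interval for SSLP1 in maternal tissue crosses 0.

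Members with the same direction in EM did not share one pattern among normal conceptuses. Across the 9 N conceptuses of E2 the coefficient of variation was 17.4% for TKDP1 and 16.8% for SSLP1, but 89.1% for TKDP4 and 173% for TKDP2. TKDP2 and TKDP4 were high in the same conceptuses, with Pearson's r = 0.93 on log2 CPM (exact permutation p = 0.000413, adjusted p = 0.00372 over 9 pairs) and Spearman's rho = 0.93 (exact permutation p = 0.00075, adjusted p = 0.00675, n = 9). Without the 2 conceptuses farthest from the median, S54 and S60, r was 0.90. TKDP2 made up 0.014 to 0.13% of the TKDP4 counts in N, and since the family holds close copies, reads of an abundant member may be counted on a scarce one, which was not tested.

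The other 5 pairs in E2 did not pass, with r from -0.20 to 0.62 and adjusted p from 0.215 to 0.746 (exact permutation, n = 9). For TKDP1 and TKDP4 r was 0.42, and 0.89 without S56 and S63. For SSLP1 and TKDP1 it was 0.59, and 0.13 without S56 and S52, so neither value is stable to the conceptuses left out. In E1, conceptuses S6 and S8 stood apart in both TKDP4 and the TKDP2-described row, with 641 and 289 counts of the latter against 5 to 54 in the rest. Among the other 6 N conceptuses r was -0.72 (exact permutation p = 0.108, n = 6), so the joint rise of the pair in E1 rests on those 2 conceptuses. With SSLP1, neither row of E1 was related (r 0.18 and 0.31, adjusted p 0.746 and 0.719, exact permutation, n = 8).

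Ratios of counts within a library compare members apart from depth. TKDP1 counts were 3.94 to 6.16 times those of SSLP1 in the N conceptuses of E2, a narrow range. In EM the ratio was 0.097 in replicate S49 and 3.02 to 5.47 in the other 5. Its mean log2 difference was -1.21 (exact permutation p = 0.016, adjusted p = 0.0639 over 4 ratios, two-sided), which does not pass after adjustment. The ratios of TKDP4 to TKDP1 (adjusted p = 0.639) and of TKDP4 to SSLP1 (adjusted p = 0.639 in E2 and in E1, exact permutation) did not pass either. TKDP4 counts were 0.015 to 0.31 times those of TKDP1 in N and 0.021 to 0.27 times in EM, so the ranges nearly coincided. These ratios were chosen after the values were seen.

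**Figure D3:**
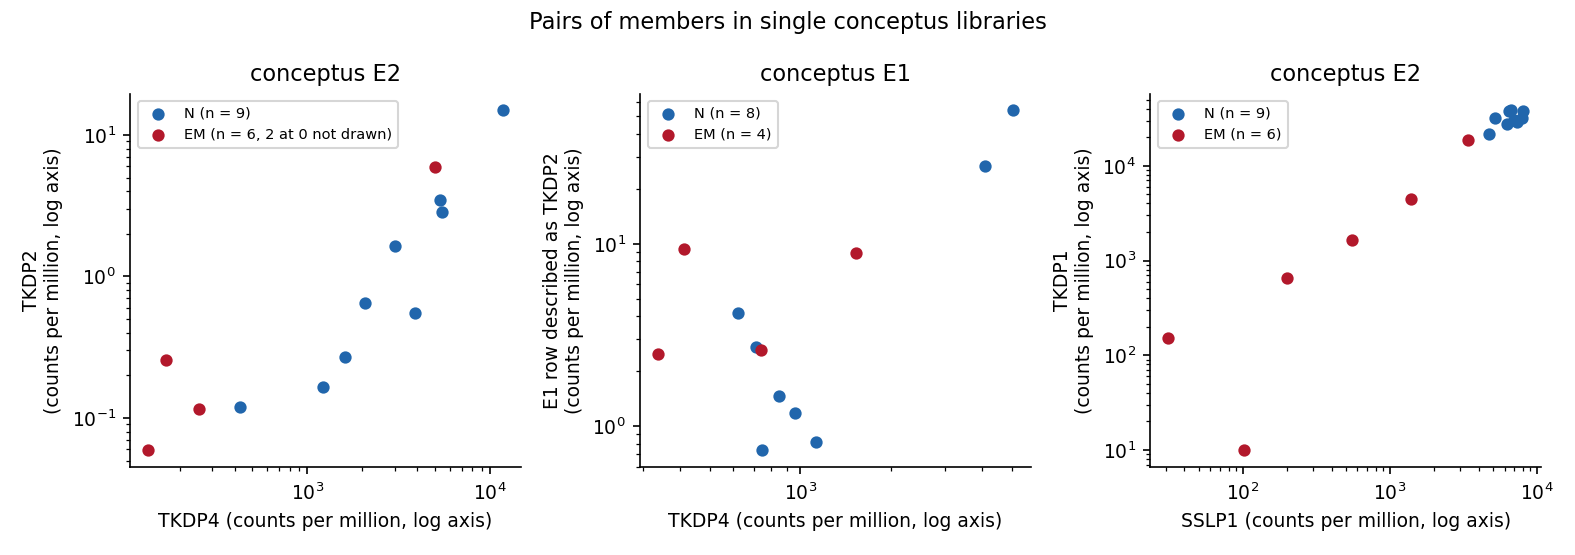
Pairs of members in single conceptus libraries, in CPM on log axes: TKDP2 against TKDP4 in E2 (left), the TKDP2-described row against TKDP4 in E1 (middle) and TKDP1 against SSLP1 in E2 (right); N blue, EM red, and 2 EM libraries with 0 TKDP2 counts are not drawn. The left panel rises over its whole range, the middle one only through 2 N conceptuses, and in the right one replicate S49 lies below the line of the other EM libraries.

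The members were set against the markers of the cells that make them. Of 16 trophectoderm markers 15 were tested in E2, of which 14 fell (log2 differences of -2.74 for TEAD4, -2.27 for GATA2 and -2.95 for DLX3, all transcription factors), and EOMES rose by 2.03 (adjusted p = 0.0319, edgeR). Their median log2 difference was -3.12 beside 0.07 over all genes. In E1, 13 of 14 markers tested fell and none rose, with a median of -1.38 beside -0.03. Per unit of the trophectoderm sum, SSLP1 was 0.10 to 0.30 in the N conceptuses and 0.019 to 0.25 in the EM conceptuses of E2, and 0.0037 to 0.016 and 0.0070 to 0.017 in E1. TKDP1 was 0.47 to 1.67 in N and 0.0082 to 0.95 in EM. These ranges overlap, unlike the levels themselves in E2, but the E2 medians were lower in EM. They were 0.54 in EM and 1.05 in N for TKDP1, and 0.16 and 0.22 for SSLP1. For both genes, EM replicates S49 and S58 lay below every N conceptus. In E1 the SSLP1 medians were 0.013 in EM and 0.011 in N. The markers in the sum are not confined to trophectoderm, and their sum was 219 to 504 CPM in EM endometrium of E2. In S49 and S58 of E2 the sum was only 1213 and 1602 CPM. How far other cells add to it in these libraries was not tested. The part of trophectoderm content in the fall of TKDP1 and SSLP1 was not tested.

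Other secreted products of the trophoblast were lower as well. All 3 interferon tau rows, the pregnancy recognition signal of ruminants, fell in E2 (log2 differences of -3.97 for IFN-TAU, -3.15 for IFNT3 and -2.90 for IFNT2). Of 19 pregnancy-associated glycoprotein rows 5 were tested and 4 fell, among them PAG7 (-4.26), PAG11 (-3.58) and PAG8 (-3.41). Both families hold close copies, so the split of reads between their rows is uncertain. In E1 the only interferon tau row tested and 1 of 3 PAG rows fell. No gene of either list rose.

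Kunitz proteins outside the family were mostly higher in EM. Of 10 such genes tested in E2, 9 rose and 1 fell, with a median log2 difference of 2.01. TFPI2, a protease inhibitor of the extracellular matrix, rose from 2.47 ± 1.35 CPM in N (SD, n = 9) to 122.1 ± 80.4 CPM in EM (SD, n = 6), a log2 difference of 5.25. PTI, pancreatic trypsin inhibitor, differed by 6.81 and APP, the amyloid precursor protein, by 2.36. In E1, 5 of 8 rose and 1 fell. Serine proteases, the enzymes that Kunitz domains act on, were called at shares not far from those of all genes (35.3% higher and 31.8% lower in E2, 25.4% and 21.7% in E1). Of 12 tested, 3 rose (HTRA1 by 6.17, PLAT by 5.78 and TMPRSS2 by 2.21) and 4 fell in E2, and 3 rose and 3 fell in E1.

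Among relatives of SSLP1, most calls went the other way, but as a set they rose only in E2. Of 11 Ly-6 genes tested in E2, 7 rose and 1 fell, led by CD59 (5.87), LY6G6C (4.58) and LY6E (2.63). Their median log2 difference was 2.19 in E2, where 35.3% of all genes were called higher and 31.8% lower. In E1, 4 of 10 rose and 1 fell, beside 25.4% and 21.7% of all genes. The median there was 0.004 beside -0.03 over all genes. The summed level of the 20 listed rows of E1 was lower in EM, at a median of 1531 CPM against 3494 CPM in N. Of the other prolactin and growth hormone genes 2 were tested in E2: PRLR, the prolactin receptor, rose by 2.80, and GHR, the growth hormone receptor, differed by -0.70 (adjusted p = 0.194, edgeR).

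Markers of other cell types moved with EM in both experiments. In E2, 11 of 12 leukocyte markers rose (MS4A1, CD79A and TYROBP first), 7 of 9 tested endometrial epithelium markers (SERPINA14, MUC16 and PGR), 6 of 7 stroma markers (DCN, VIM and COL3A1) and 2 of 3 erythroid markers (HBB and HBA), and none of these lists had a fall. Epiblast markers fell in 4 of 4 tested (LIN28A, SALL4 and DPPA4), hypoblast markers in 5 of 7 with 2 rises (SOX17 rose, FOXA1 and FN1 fell), and of 5 luteal markers tested STAR rose and SCARB1 fell. EM replicate S61 stood apart in this list, with a luteal sum of 3835 CPM against 19.5 to 161 CPM in the other EM conceptuses and 268 to 578 CPM in N, and the rise of STAR (339 ± 815 CPM in EM, SD, n = 6) rests on few libraries. TKDP1 and SSLP1 passed the test without S61 as well. In E1, 7 of 8 leukocyte, 4 of 6 endometrial epithelium, 8 of 8 stroma and 2 of 2 erythroid markers rose. Epiblast (1 of 1), hypoblast (5 of 6, with 1 rise) and luteal markers (1 of 3) fell there. What these shifts contribute to the fall of TKDP1 and SSLP1 was not tested.

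The genes most like each member were taken as the 3 with the highest correlation over the 15 E2 conceptuses, out of 12918 named genes with a mean of at least 1 CPM. Both groups enter, so a shared EM difference raises every value, and no test was made. TKDP1 was closest to IFNT3 (r = 0.997), PAG2 (0.99) and IFNT2 (0.99), but over the 9 N conceptuses alone these values were 0.47, 0.18 and 0.36. SSLP1 was closest to TFAP2A, a trophectoderm transcription factor (0.996, and 0.82 in N), MRPS30 (0.98, and 0.37 in N) and ACOT2_2 (0.98, and 0.45 in N). TKDP4 was closest to HAND1, a transcription factor of trophoblast giant cells in the mouse (0.97, and 0.97 in N), IFNT2 (0.96, and 0.89 in N) and PAG12 (0.95, and 0.92 in N). TKDP2 was closest to PTTG1IP (0.92, and 0.95 in N), BAIAP2L1 (0.90, and 0.89 in N) and IGFL1 (0.89, and 0.82 in N). Within the normal group the values were at or above 0.82 for TKDP4 and TKDP2, 0.37 to 0.82 for SSLP1 and 0.18 to 0.47 for TKDP1. The genes were picked on values that include these 9 libraries, and the members differ widely in spread among them. The values therefore cannot be compared between members.

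Outside the conceptus TKDP1 was close to 0. It had 0 or 1 count in each of 22 endometrium and 22 PBMC libraries of E2. In the N endometrium 3 counts in 138865988 gave 0.022 CPM, with a Poisson interval of 0.0045 to 0.063 CPM. The level in N conceptuses was 1491670 times that in N endometrium, with a counting interval of 510423 to 7233260. The corpus luteum of E2 held more, 0 to 23 counts a library, and TKDP1 was seen there in 3 of 6 EM, 5 of 9 N and 3 of 7 NP libraries. Non-pregnant cows were among them, with 13 and 11 counts in replicates S108 and S109. The libraries with the most counts carry neighbouring numbers and also hold other conceptus rows, as given under Other observations. Pooled, TKDP1 stood at 0.42 CPM in EM, 0.10 CPM in N and 0.19 CPM in NP corpus luteum.

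TKDP4 had 0 counts in all endometrium libraries of E2 and all PBMC libraries of both experiments. Against N endometrium the level in N conceptuses of E2 was at least 172464-fold higher, taking 3 counts over the group as the limit. In the corpus luteum it had 0 to 4 counts. TKDP2 had 1 count in 1 NP endometrium library and 0 elsewhere in maternal tissue of E2. The TKDP2-described row had 0 in all maternal libraries of E1.

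SSLP1 was the only member found in every E2 endometrium library, at levels that varied widely. The libraries held 13 to 793 counts. It was 25.9 CPM in NP when pooled, with a library range of 1.61 to 52.2 CPM, 16.4 CPM in EM (0.94 to 39.4 CPM) and 13.3 CPM in N (1.93 to 51.7 CPM). The pooled level of the N conceptus was 505 times that of the N endometrium. Its interval of 482 to 529 covers counting error only, not the wide spread between endometrium libraries. Corpus luteum (0.41 to 0.78 CPM, pooled by group) and PBMC (0.56 to 0.74 CPM) of E2 came far below. By mean level the order was N conceptus, EM conceptus, NP, EM and N endometrium, then corpus luteum and PBMC. The 3 endometrium groups overlapped, as did the corpus luteum and PBMC groups among themselves. Single libraries overlapped between tissues too. The lowest EM conceptus, at 30.99 CPM, lay below the highest endometrium libraries. The lowest endometrium library, at 0.94 CPM, lay below the highest corpus luteum library, at 3.096 CPM.

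In E1 the endometrium held only 0 to 19 SSLP1 counts per library, 0.60 CPM in EM, 0.73 CPM in N and 0.56 CPM in NP when pooled. Levels of E1 and E2 were not compared, since the experiments were counted on different annotations. PBMC of E1 held 0 to 2 counts.

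**Figure D4:**
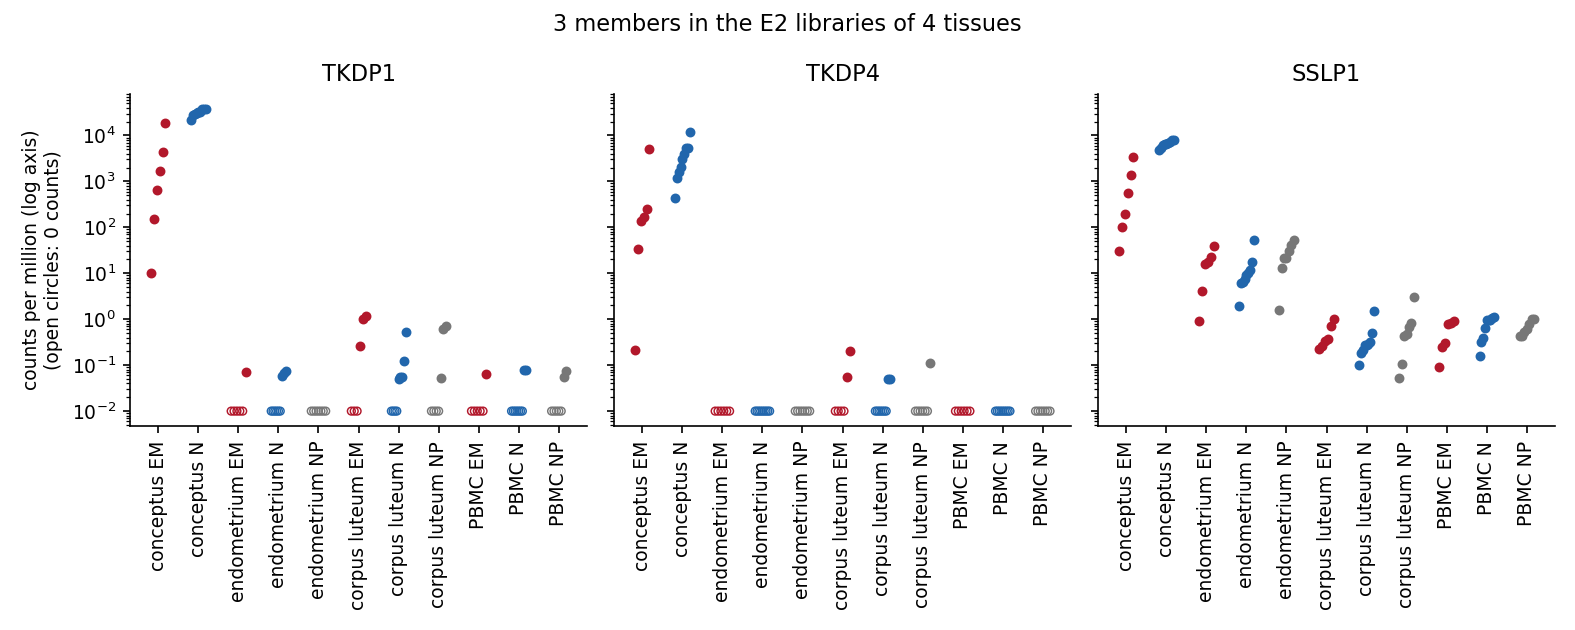
TKDP1, TKDP4 and SSLP1 in the E2 libraries of conceptus, endometrium, corpus luteum and PBMC, in CPM on a log axis; red is EM, blue N, grey NP, and open circles are libraries with 0 counts. Outside the conceptus TKDP1 and TKDP4 lie at or near 0. SSLP1 is lower in endometrium than in conceptus and lower again in corpus luteum and PBMC, with single libraries overlapping between tissues.

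The difference between N conceptus and N endometrium was tested in E2. SSLP1 was higher in the conceptus by 9.97 on the log2 scale (SE 0.62, adjusted p = 1.53e-11, edgeR). Against a group at or near 0 the fitted differences of TKDP1 and TKDP4 depend on the prior count and are not given. Over all 16713 genes 38.3% were called higher in the conceptus. TKDP1 and TKDP4 passed the filter only through the conceptus, so their calls were fixed by it and are not counted.

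No difference of SSLP1 with pregnancy status passed the test in any maternal tissue. In E2 endometrium the log2 difference was 0.19 for EM minus N (SE 0.69, adjusted p = 0.985, edgeR), with a 95% interval of -1.16 to 1.54. It was -0.74 for N minus NP (SE 0.66, adjusted p = 0.835) and -0.55 for EM minus NP (SE 0.73, adjusted p = 0.929). Over all 19038 genes 0%, 1.41% and 0.247% were called in these 3 comparisons. In E1 endometrium the differences were -0.32 for EM minus N (adjusted p = 0.908), 0.40 for N minus NP (adjusted p = 0.781) and 0.08 for EM minus NP (adjusted p = 0.983), beside 1.38%, 2.52% and 0.0426% of 14084 genes called.

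Corpus luteum and PBMC gave the same outcome for SSLP1. The corpus luteum values were 0.37 for EM minus N, -1.001 for N minus NP and -0.63 for EM minus NP, with adjusted p from 0.926 to 0.9997 (edgeR), beside 0.00568%, 0% and 0% of 17597 genes. PBMC of E2 gave -0.41, 0.14 and -0.27 in the same order, with adjusted p from 0.986 to 0.9999, beside 0% of 16269 genes in each comparison. Across these 12 maternal comparisons SSLP1 passed in 0 with edgeR and in 0 with DESeq2, and in 0 at an unadjusted p under 0.05. The intervals for N minus NP ran from -2.02 to 0.55 in E2 endometrium and from -2.20 to 0.20 in corpus luteum. No member had enough counts to be tested in PBMC of E1.

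TKDP4 was present in the endometrium of E1 in the EM group. The 4 EM libraries held 2, 4, 5 and 7 counts, the 8 N libraries 0 and the 7 NP libraries 0 except for 1 count in replicate S25. All 4 EM libraries thus lay above every other E1 endometrium library, on few counts each. The share of all genes with such a separation is not given here, so it does not set TKDP4 apart. These libraries carry the neighbouring numbers S14 to S17, so a difference by EM status and one by library number cannot be told apart. Pooled, TKDP4 was at least 14.03-fold higher in EM than in N, taking 3 counts over the group as the limit, and 36.6 times NP (counting interval 5.78 to 1525). It was too low for the main filter, and a looser one lets it in only through the EM libraries, so no test is given.

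Other conceptus rows followed the same libraries. Of 5 rows without a gene symbol within 200 kb of the TKDP rows on chromosome 13, the 2 with the most conceptus counts were taken, ENSBTAG00000038966 (UMD3.1 chr13:74797637-74814416) and ENSBTAG00000039693 (chr13:74669485-74692955), and each held more conceptus counts than TKDP4. They fell in EM conceptuses by 1.10 (adjusted p = 0.0084) and 1.36 (adjusted p = 0.0239) on the log2 scale (edgeR), from medians of 30610 and 20369 CPM in N. In E1 endometrium the first held 12.8 to 18.2 CPM in the 4 EM libraries and 0 or 1 count in the others, and the second held 72 to 98 counts in EM and 0 in the others. The summed PAG rows held 13 to 34 counts in EM and 0 or 1 in the rest, and the summed interferon tau rows 47 to 70 and 2 to 23. SSLP1 showed no such pattern, with 4 to 8 counts in EM and 0 to 19 in N. Its mean in the EM conceptuses of E1 was 157 CPM, against 13936 CPM for the first row. With so few SSLP1 counts in each endometrium group, whether it followed these rows cannot be told. TKDP4 in E2 endometrium showed no such counts. Whether conceptus material lay in these EM samples was not tested.

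**Figure D5:**
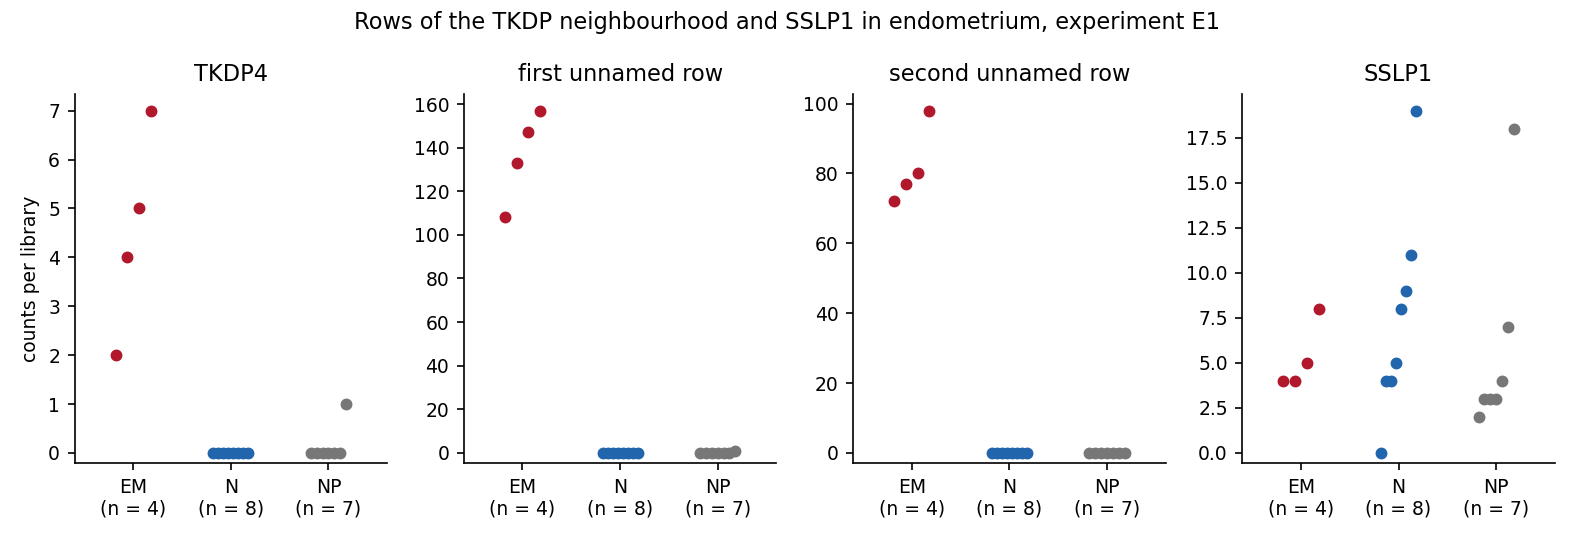
Counts per library in E1 endometrium for TKDP4, the 2 of 5 nearby rows without a symbol that held the most conceptus counts (first and second in the order given in the text) and SSLP1, with EM in red, N in blue and NP in grey. TKDP4 and both unnamed rows are above 0 in all 4 EM libraries and at 0 or 1 elsewhere, while SSLP1 overlaps between the groups.

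For the members with a position in the E1 table, TKDP4 lies at chr13:74829025-74836849 and the TKDP2-described row at chr13:74867648-74877419, with exon lengths of 616 and 1143 bases (UMD3.1). PRP1 (chr23:34531406-34543487) and PRP9 (chr23:34719327-34731151) share a chromosome, and SSLP1 lies at chr29:29453500-29459846 with 402 bases of exon. In E2, 3 further rows are described in the file as TKDP1 or like it, and they were low beside TKDP1. LOC107133059 fell by 3.39 (adjusted p = 0.00456, edgeR) from a median of 133 CPM in N, while LOC112449239 (-2.83, adjusted p = 0.084) and LOC404105 (-2.01, adjusted p = 0.205) did not pass. How reads were divided among these close copies is not stated, so the split of counts between family members is uncertain.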

How the data were processed

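Raw read counts per gene were deposited by the authors as tables for each tissue and experiment. Libraries were made with a stranded mRNA kit, read as 100 bp pairs in E1 (UMD3.1) and as 75 bp single reads in E2 (ARS-UCD 1.2); no source used here names the counting program. From E2, 28 repeated rows were dropped, and 2 of 129 samples, whose labels name both endometrium and PBMC, and their 2 columns were not used. Counts were filtered with filterByExpr (minimum count 10), scaled by TMM and tested with edgeR 4.0.16 (quasi-likelihood, Benjamini-Hochberg at 0.05) in R 4.3.3. The SE is the log2 difference over the square root of F. CPM uses plain library totals. DESeq2 1.42.0, RLE factors, other filters, a robust spread and leaving out each library were alternatives. Other tests used scipy 1.17.1. Scripts were tested on simulated data. All 9 symbols are named, with up to 3 genes per list by smallest p in the E2 conceptuses. Members and lists were chosen with earlier results of these data known.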

Additional observations from a re-analysis of the deposited data

Results flagged for a closer look

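Of 28 groups of 4 to 10 libraries in which a member was measured, 10 had a library far from the others. Chance gives about 1 in 20 for a single group. The groups share libraries and some hold few counts, so the 10 cannot be set against that rate. In the E2 EM conceptuses replicate S55 stood above the rest in TKDP1 (18520 CPM), TKDP4 (5007 CPM) and TKDP2 (5.98 CPM), and its trophectoderm sum, 19408 CPM, was also the highest of the group. In the E2 N conceptuses replicate S54 stood above the rest in TKDP4 (11740 CPM) and TKDP2 (14.9 CPM). The other 5 concern SSLP1 in maternal tissue, each a high library: S72 in N endometrium of E2 (51.7 CPM), S25 in NP endometrium of E1 (1.81 CPM), S124 in N corpus luteum (1.49 CPM), S123 in NP corpus luteum (3.096 CPM) and S38 in N PBMC of E1 (0.22 CPM, a single count).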

How the results depend on the processing

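The fall of SSLP1 and TKDP1 in the E2 conceptuses held under all 21 alternatives (log2 differences of -4.29 to -2.72 and -4.94 to -2.80), and that of SSLP1 in E1 under all 18 in which it was tested (-1.67 to -0.89). RLE factors moved the median of all genes from 0.07 to 0.17 in E2 and from -0.03 to 0.08 in E1 and changed no member's call. Leaving out a library gave 2 to 4 members called in the E2 conceptuses, the 4 being without EM replicate S55, and 0 to 2 in the comparison of the EM difference between experiments. With at least 10 counts in every library, 0 members were called in the E1 conceptuses, since SSLP1, with 7 counts in 1 library, was then not tested. Under a sum of at least 10 counts, or no filter beyond 1 count, 1 member (TKDP4) was called in E1 endometrium, EM against N, but it entered that test only through the EM libraries, so the call is no support. Directions turned only for values that were not called, when a library was left out: SSLP1 in E2 endometrium, EM minus N (-0.29 to 0.89), SSLP1 in E1 endometrium, EM minus NP (-0.23 to 0.23), and TKDP2 between experiments (-0.97 to 3.81). DESeq2 called more genes in all in some comparisons (E1 endometrium EM against N 595 against 195, N against NP 739 against 355; E2 endometrium 33 against 0, 517 against 268 and 253 against 47; between experiments 83 against 23), and as many members as edgeR. No paired analysis was possible because the groups share no replicate numbers. The scarce TKDP2 counts and the shallow E1 EM libraries limit precision.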

Other observations

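In the corpus luteum of E2, the 5 libraries with the most TKDP1 counts, 11 to 23 each, carry the numbers S108 to S112 and include EM, N and NP cows (S110 with 23, S112 with 18, S108 with 13, S109 with 11 and S111 with 11), while the other 17 held 0 to 4. Other conceptus rows were also seen in these 5 libraries. The summed PAG rows held 4 to 14 counts there and 0 to 6 in the others. The summed interferon tau rows held 4 to 11 and 0 to 6, and TKDP4 held 0 to 4 and 0 or 1. SSLP1 held 10 to 18 counts in these 5 libraries. In the others it held 1 to 9, except for 53 in S123 and 26 in S124. The corpus luteum levels and comparisons of SSLP1 given above include all these libraries. The cause of this pattern was not tested.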
